A study of Mus musculus with 2 samples.

Results

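The RGS genes described here are 10 genes of regulators of G-protein signalling, Rgs2, Rgs3, Rgs4, Rgs5, Rgs10, Rgs12, Rgs14, Rgs16, Rgs17 and Rgs19. They were taken by gene symbol from the non-control spots of the arrays, with every probe of each gene kept. They had 19 probes, each printed as 1 spot per array, out of 55681 probes and 35019 gene names on the array. Probes were 60 bases long. Of the 10 genes, 9 were measured, which here means well above background on both arrays by the scanner software's own mark, as were 16 of the 19 probes.

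RNA came from mouse cells labelled GT1-7, an established line of immortalised hypothalamic neurons. All dishes were grown in DMEM with FCS and gentamicin. One group, the vehicle array, had DMSO for 30 min and the other, the GnRH array, had 50 nM gonadotropin-releasing hormone (GnRH) for 30 min. Each group had 1 array, so no difference has a replicate check, no test was made, and precision is limited by how few arrays there are. The free-text note on both samples names bradykinin and A549 cells, and all other labels name GT1-7, which sets the groups here. The marker genes given at the end go partly against the labelled cell type. Gnrh1 was not measured, while gonadotrope genes such as Cga and Nr5a1 were bright on both arrays. Of 6 gonadotrope markers 5 were measured, though Lhb was dim (71.5 with vehicle), and Fshb was not measured. Of 5 general neuron markers 4 were measured.

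RGS proteins bind the active, GTP-loaded alpha subunit of a heterotrimeric G protein and speed up its GTP hydrolysis, which shortens the signal of the receptor. The receptor for GnRH couples mainly to the Gq/11 class, whose alpha subunits activate phospholipase C beta. Rgs2, Rgs3, Rgs4, Rgs5 and Rgs16 belong to the small R4 subfamily, Rgs10, Rgs12 and Rgs14 to the R12 subfamily, and Rgs17 and Rgs19 to the RZ subfamily. Several R4 genes are known as genes whose transcript level can change quickly after receptor stimulation.

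The stretches of 250 bases just upstream of the transcript start of 3 R4 genes are shown because Rgs16 had the largest difference of the 9 measured genes, while Rgs2 and Rgs4 lie on the same chromosome and had smaller ones. They were read from RefSeq promoter windows of GRCm38.p6, a different build from that of the probe positions given below. They run 5′ to 3′ on the gene's strand, for Rgs2 at chr1:144004150-144004399 (minus strand), for Rgs4 at chr1:169747643-169747892 (minus strand) and for Rgs16 at chr1:153740103-153740352 (plus strand). Capitals mark the motif letters found.
Rgs16: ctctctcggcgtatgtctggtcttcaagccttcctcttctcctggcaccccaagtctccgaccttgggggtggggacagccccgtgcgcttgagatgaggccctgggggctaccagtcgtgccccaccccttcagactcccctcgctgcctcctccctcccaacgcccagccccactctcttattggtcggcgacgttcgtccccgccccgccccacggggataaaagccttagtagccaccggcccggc
Rgs2: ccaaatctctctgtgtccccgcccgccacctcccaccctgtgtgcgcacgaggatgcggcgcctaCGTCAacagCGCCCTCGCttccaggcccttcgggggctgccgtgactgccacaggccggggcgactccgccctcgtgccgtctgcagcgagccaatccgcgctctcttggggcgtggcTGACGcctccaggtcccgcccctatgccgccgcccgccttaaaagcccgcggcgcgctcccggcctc
Rgs4: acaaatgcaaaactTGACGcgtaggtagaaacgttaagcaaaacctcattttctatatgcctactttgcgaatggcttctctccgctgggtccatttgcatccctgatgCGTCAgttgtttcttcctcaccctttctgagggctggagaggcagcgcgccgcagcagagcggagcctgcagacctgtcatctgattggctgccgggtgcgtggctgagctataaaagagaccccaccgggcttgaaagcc

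Motifs of factors that respond to receptor signals were searched on both strands of windows that also take in 50 bases after the start. The motifs were the cAMP response element (CRE, TGACGTCA), its core (TGACG, which the full element contains), the AP-1 site (TGANTCA), the EGR site (GCGNGGGCG) and the CArG box. The table held 13 windows for 9 of the RGS genes, with Rgs14 not among them, and 32851 windows in all. The Rgs16 window held none of these motifs, which says only that these letters are not in that window. The Rgs2 window held a CRE core ending 62 bases and another 180 bases before the start, and an EGR site 167 bases before it. The Rgs4 window held CRE cores ending 136 and 231 bases before the start. Rgs12 held a CRE core (77 bases) and an AP-1 site (15 bases) in its window at chr5:34998828-34999127, and no motif in its other window. Rgs17 held an AP-1 site (115 bases). Rgs19 held an EGR site (89 bases) in its window at chr2:181693761-181694060, and no motif in its other windows.

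Counted over windows, the CRE core was in 3 of 13 RGS windows and in 20.8% of all windows. The AP-1 site was in 2 of 13 and in 7.81% of all, and the EGR site was in 2 of 13 and in 5.55% of all. The full CRE and the CArG box were in 0 of 13 RGS windows, and in 1.79% and 1.63% of all windows. None of the matches found in the RGS windows overlapped another motif. The printed upstream bases were 66.4% G or C for Rgs16, 72.4% for Rgs2 and 53.6% for Rgs4, beside a median of 52.4% over all windows. A match of letters is a description, and binding was not measured.

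Signals below are the scanner's processed signals, intensities after its background subtraction. Differences are GnRH minus vehicle on the log2 scale, after each array was scaled to its own 75th percentile of 578 (vehicle) or 541 (GnRH), so that equal signals on both arrays give a difference slightly above 0. Each ± is the scanner software's error combined over both arrays. It mostly reflects a multiplicative error setting of 0.1 and holds no variation between cultures. Probe positions are those in the files, on mm9. The exon or UTR a probe lies in was not determined here.

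Rgs16 was the RGS gene that stood highest in the GnRH array. The gene encodes an R4 protein that acts on Gi/o and Gq alpha subunits. Its probe (chr1:155592244-155592303, plus strand) had a signal of 664 with vehicle and 858 with GnRH. The GnRH array was thus the brighter of the pair, by 1.38-fold after scaling. The log2 difference was 0.46 ± 0.20, which is 2.27 times its scanner error. Of 21219 measured genes, Rgs16 ranked 445 from the highest. It lay just outside the central 95% of all measured genes, which ran from -0.39 to 0.43. The rank and this place depend on how dim genes are treated. Rgs16 ranked 134 with the normexp background correction, 131 with none and 141 with a stricter filter on dim probes. It ranked 1903 with a looser background call and 3309 with no filter, and there it lay inside the central 95%, whose upper end was 0.93 and 1.17.

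Single spots give another view of technical error. Among 254 probes printed 10 times, with at least 8 kept spots each and split into 4 classes by brightness, log2 differences of single spots of 1 probe had an SD of 0.07 in the class that holds the Rgs16 probe. The Rgs16 difference was 6.73 times that SD. Other RGS genes also exceeded the SD of their own class. Rgs3 did so by 5.28 times (higher in the GnRH array), Rgs12 by 3.42 times (lower), Rgs2 by 2.87 times (higher) and Rgs4 by 1.45 times (higher). The share of all measured genes past the SD of their class was not computed. Differences over all measured genes had an SD of 0.25, so passing a single-spot SD does not set a gene apart. The single-spot spread covers spots of 1 pair of arrays and leaves out differences between cultures, labellings and hybridisations. Rgs16 had a single probe, so no other probe of the gene bears on its value.

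**Figure D1:**
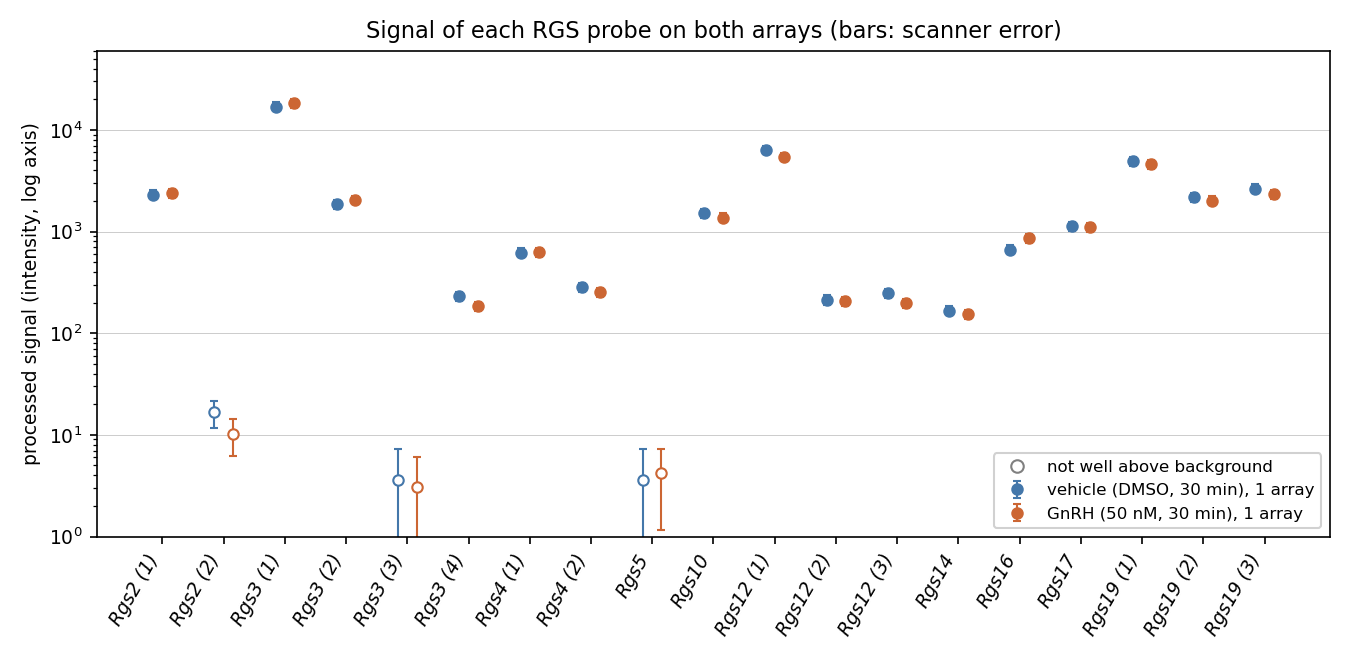
Processed signal (intensity, log axis) of each of the 19 RGS probes in the vehicle array and the GnRH array, with the scanner error as bars; numbers in brackets count the probes of a gene. Open points were not well above background, which holds for 1 probe each of Rgs2, Rgs3 and Rgs5; the Rgs16 points (664 and 858) are the pair furthest apart among filled points in the upward direction.

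Rgs2, which acts preferentially on Gq-class alpha subunits, differed by less than its scanner error. Its bright probe (chr1:145848830-145848889, minus strand) read 2304 with vehicle and 2367 with GnRH, and its log2 difference was 0.13 ± 0.20. The other Rgs2 probe (chr1:145847227-145847286) was, on both arrays, not well above background, at 16.6 and 10.2, and gives no fold.

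Rgs3 differed in direction between its probes. Rgs3 is an R4 gene with long and short products, and its protein is known to dampen Gq signalling from the GnRH receptor when overexpressed. The brightest probe (chr4:62363993-62364052) read 16913 with vehicle and 18309 with GnRH, a difference of 0.21 ± 0.20. A neighbouring probe of the same listed transcript (chr4:62363208-62363267) read 1870 and 2055, a difference of 0.23 ± 0.20. Both were higher in the GnRH array, by slightly more than the scanner error.

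Another Rgs3 probe, listed under another RefSeq transcript of the gene (chr4:62320777-62320836), was lower in the GnRH array. It read 230 with vehicle and 183 with GnRH, a difference of -0.24 ± 0.21. The 3 measured Rgs3 probes thus spanned 0.47 ± 0.29. Among the 1186 genes with 3 measured probes, 200 (16.9%) had a span at least as large, and the median span was 0.20. The remaining probe (chr4:62358833-62358892) was, on both arrays, not well above background, at 3.58 and 3.04.

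Rgs4, an R4 gene of neurons whose protein is degraded through its N-terminus, had its signals nearly equal. Its brighter probe (chr1:171672488-171672547, minus strand) read 622 with vehicle and 624 with GnRH, a difference of 0.10 ± 0.20. Its other probe (chr1:171671609-171671668) read 283 and 254, a difference of -0.06 ± 0.21. Both values were within the scanner error and on opposite sides of 0.

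Rgs5, an R4 gene best known as a marker of pericytes, was not measured. Its only probe (chr1:171623021-171623080) was at 3.61 with vehicle and 4.21 with GnRH, not well above background on either. No fold is given for it. Of 7 other markers of smooth muscle and pericytes, 3 were measured (Acta2, Cspg4 and Tagln), while Kcnj8 and Abcc9 were, on both arrays, not well above background. Pdgfrb, a main pericyte marker, passed that mark on the GnRH array alone (14.4 with vehicle and 19.1 with GnRH), and Cnn1 on the vehicle array alone (31.4 and 9.99).

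Rgs10, an R12 gene known for its high level in microglia and for acting on Gi/o subunits, was slightly lower in signal. Its probe (chr7:135517256-135517315, minus strand) read 1507 with vehicle and 1372 with GnRH, a scaled difference of -0.04 ± 0.20. Of 5 microglia and immune markers, 3 were measured (Aif1, Cd68 and Csf1r), and Cx3cr1 and Ptprc were, on both arrays, not well above background. In such bulk RNA, fewer cells of a type and less RNA per cell cannot be told apart.

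Rgs12, a large R12 gene whose protein carries a GoLoco motif and Ras-binding domains beside the RGS domain, had the lowest gene value among the 9 measured. Its brightest probe (chr5:35376032-35376091) read 6370 with vehicle and 5430 with GnRH, a difference of -0.14 ± 0.20. Another probe (chr5:35374884-35374943) read 213 and 206, a difference of 0.05 ± 0.21. The last (chr5:35376136-35376194) read 246 and 198, a difference of -0.22 ± 0.21. The 3 probes did not share a direction, and their span of 0.27 ± 0.29 was below its error.

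Rgs14, the other gene of this subfamily with a GoLoco motif, is known from the hippocampus. Its probe (chr13:55485762-55485821) read 167 with vehicle and 153 with GnRH, a difference of -0.03 ± 0.21. The value is within the scanner error.

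The RZ genes, whose proteins carry a cysteine string and act mainly on Gi/o/z subunits, differed by less than their scanner error. The Rgs17 probe (chr10:4513546-4513605, plus strand) read 1122 with vehicle and 1100 with GnRH, a difference of 0.07 ± 0.20. The array lists this probe under a RefSeq transcript of Rgs17, at position 858. The Rgs17 promoter window (chr10:5922401-5922650) is on the minus strand, but of GRCm38.p6, while the probe place is on mm9. Positions were not converted between these builds, so the strands cannot be set against each other. Whether the probe reads the Rgs17 transcript was not checked. Rgs19, which encodes a binding partner of the adaptor protein GIPC, had 3 measured probes with like values. They read 4938 and 4598 (chr2:181423128-181423187), 2176 and 2016 (chr2:181423447-181423506), and 2639 and 2345 (chr2:181423771-181423830) in the vehicle and GnRH arrays. The Rgs19 differences were -0.01, -0.02 and -0.08, each with an error of 0.20, and their span of 0.07 was the smallest of the 4 RGS genes with more than 1 measured probe.

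**Figure D2:**
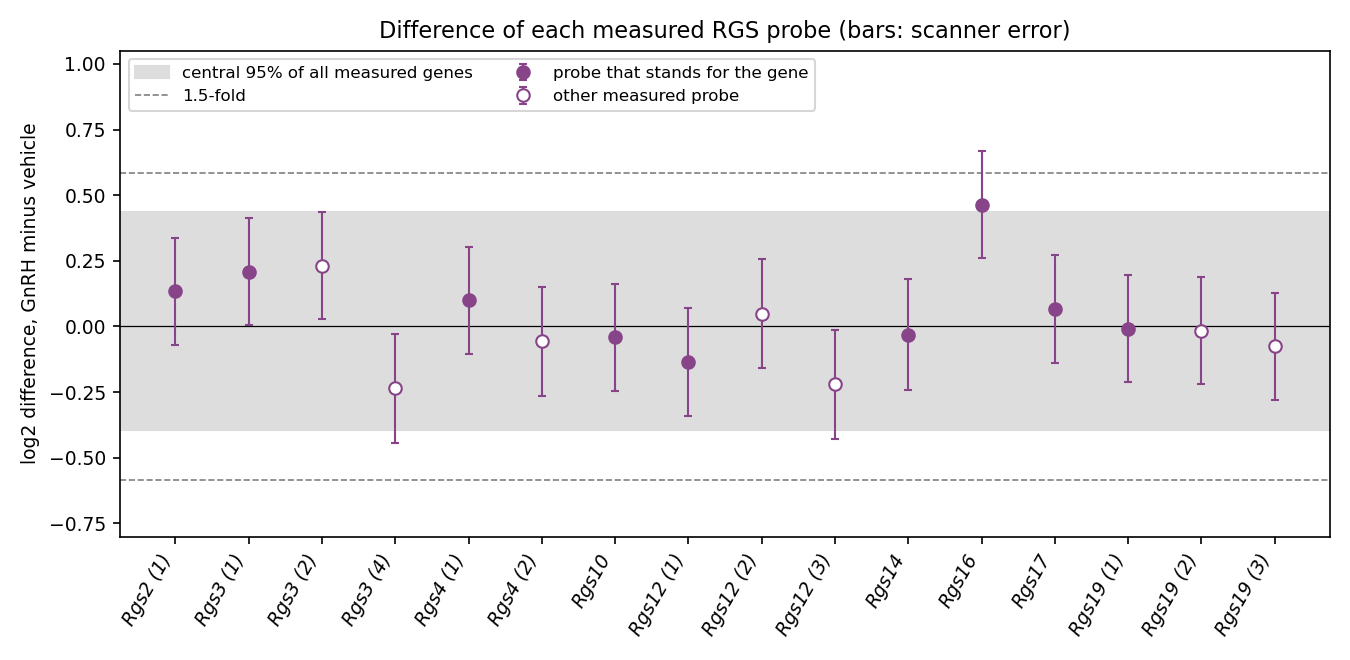
Log2 difference, GnRH minus vehicle, of the 16 measured RGS probes with the scanner error as bars; the grey band is the central 95% of all measured genes (-0.39 to 0.43) and the dashed lines are 1.5-fold. Rgs16 (0.46) is the only point outside the band, and 15 of the 16 probes lie within 0.25 of 0.

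Over the 9 measured RGS genes, each represented by its brightest measured probe, the median log2 difference was 0.07 and the range ran from -0.14 for Rgs12 to 0.46 for Rgs16. The median over all 21219 measured genes was -0.01. In the RGS genes 5 values were above 0 and 4 below, and 47.5% of all measured genes were above 0. Ranked from the highest, Rgs16 at 445 was followed by Rgs3 at 1812, Rgs2 at 3048, Rgs4 at 3968, Rgs17 at 5346, Rgs19 at 10811, Rgs14 at 12790, Rgs10 at 13660 and Rgs12 at 18269. Of the RGS genes, 2 (Rgs16 and Rgs3) exceeded their scanner error, as did 14.1% of all measured genes. Rgs3 fell short of its error of 0.20 with scaling to the median (0.18) and as the mean over its probes (0.07). Neighbours in this order after Rgs16 differed by less than the scanner error of either.

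At a log2 difference of 0.32, the smallest size counted, 1 of the 9 measured RGS genes, Rgs16, was higher in the GnRH array, beside 4.49% of all measured genes. At that size 0 of 9 were lower, beside 3.89% of all genes. The share higher over all genes ran from 1.12% with normexp to 12.5% when dim probes were kept. At 1.5-fold 0 of 9 were higher and 0 of 9 lower, beside 1.19% and 0.881% of all genes. At 2-fold 0 of 9 were higher and 0 of 9 lower, beside 0.311% and 0.132%. These counts concern 9 genes, and the one past 0.32 rests on a single probe. Fos, an immediate-early gene, was 63.3-fold higher there (log2 difference 5.98 ± 0.07, rank 3).

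**Figure D3:**
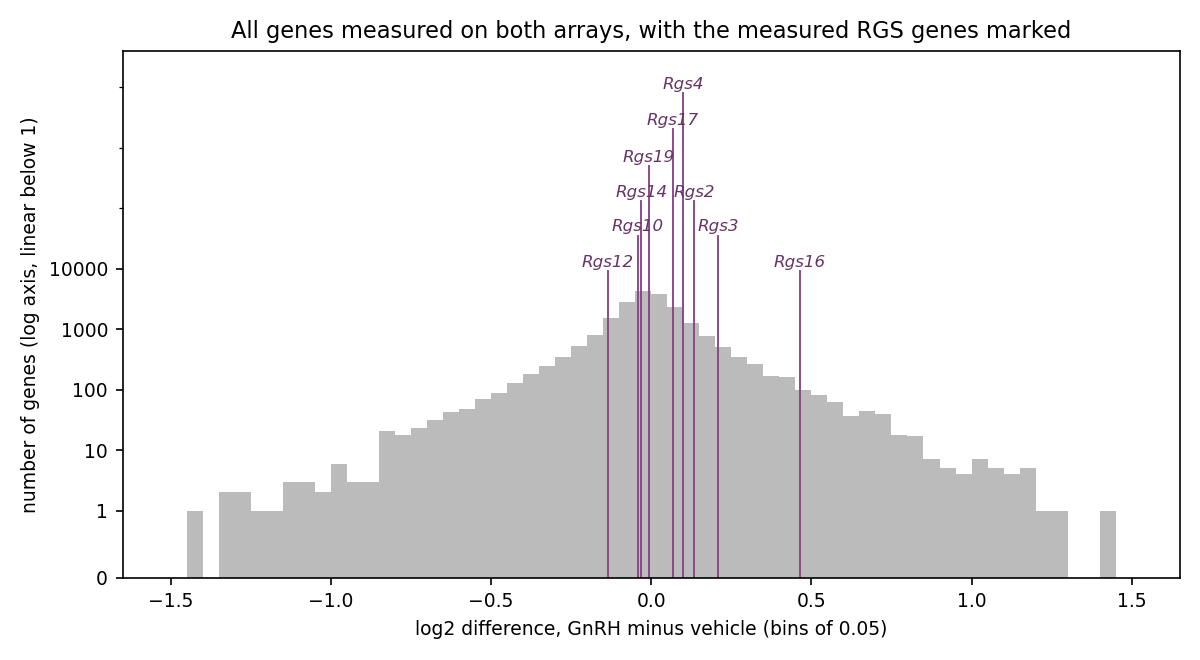
Number of measured genes (log axis) by log2 difference, GnRH minus vehicle, in bins of 0.05, with lines for the 9 measured RGS genes; 13 genes below -1.5 and 42 above 1.5 are not drawn. Of the 9 genes, 8 lie within the central 95% of all genes and Rgs16 (0.46) lies just above it.

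The place of the spots on the array was also examined. Neighbouring spots differed together in 3 areas, which held 616 non-control spots, and 0 RGS spots lay in them. The median difference of the spots around each RGS spot ran from -0.13 to 0.13, and 0 RGS spots were marked as outliers.

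Other genes of the RGS system also had mostly small differences. In 7 lists with 73 genes on the array, 60 were measured, with a median log2 difference of -0.01. Of these 60, 2 were higher by at least 0.32 (Grk4 and Axin2) and 0 were lower by as much, beside 4.49% and 3.89% of all measured genes. At 1.5-fold 1 was higher (Grk4) and 0 lower, beside 1.19% and 0.881%, and at 2-fold 0 were higher and 0 lower, beside 0.311% and 0.132%. These counts are near the shares over all genes and say nothing particular about the lists.

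Of 14 other genes listed with the RGS family, 7 were measured, with a median of 0.08, 5 above 0 and 2 below. The 14 take in Rgs7bp and Rgs9bp, which encode proteins that bind RGS proteins and are not RGS proteins themselves. Rgs9bp is among the 7 measured, at 0.09 ± 0.25. The 7 values ran from -0.16 ± 0.20 for Rgs9, the photoreceptor and striatal RGS gene, to 0.13 ± 0.20 for Rgs20, an RZ relative of Rgs17 and Rgs19. Rgs11, of the Rgs9 subfamily, was at 0.12 ± 0.21. Rgs8 was well above background on the GnRH array alone. The highest signal over its 2 probes was 18.7 there and 12.2 in the vehicle array, taken separately for each array.

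Of 15 other genes whose proteins hold an RGS homology domain, 14 were measured, with a median of 0.01, 7 above 0 and 7 below. The largest value was that of Grk4, a G-protein-coupled receptor kinase, at 0.71 ± 0.38. It was dim, with signals of 20.0 with vehicle and 30.7 with GnRH. Axin2, a feedback regulator of Wnt signalling, was at 0.35 ± 0.21, and Akap10, a kinase-anchoring protein gene, at 0.15 ± 0.20. A probe listed as Adrbk2, an older name of Grk3, was at -0.36 ± 0.21, while the brighter probe under the current name was at 0.00 ± 0.06.

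The alpha subunits, the substrates of RGS proteins, differed by less than their scanner error in each measured case. Of 16 genes, 13 were measured, with a median of -0.03, 2 above 0 and 11 below. Gnal, of the olfactory Gs-like subunit, was at 0.24 ± 0.24 with dim signals of 47.2 and 52.0. Gna15 was at -0.13 ± 0.24 and Gna12 at -0.11 ± 0.20.

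The GnRH receptor and phospholipase C beta genes, upstream and downstream of those subunits, also differed by less than their scanner error. Gnrhr read 14861 with vehicle and 13656 with GnRH, a difference of -0.03 ± 0.20. Of 5 genes in this list 4 were measured, all 4 below 0, with a median of -0.06. Plcb1 was at -0.11 ± 0.21, Plcb3 at -0.08 ± 0.20 and Plcb4 at -0.03 ± 0.20.

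Genes of GoLoco proteins and alpha subunit chaperones (7 of 7 measured) had a median of 0.02, led by Gpsm3 at 0.16 ± 0.21. Pcp2 was at 0.09 ± 0.21 and Gpsm1 at -0.06 ± 0.20. Genes of the N-degron route, by which some R4 proteins are degraded, were measured in 6 of 6 cases, with a median of 0.04. Among them Ate1, the arginyltransferase, was at 0.08 ± 0.20, the ubiquitin ligase gene Ubr2 at 0.07 ± 0.20 and Metap2 at -0.05 ± 0.20. Of 10 RGS protein partners, 9 were measured, with a median of -0.04. The 14-3-3 genes Ywhae and Ywhab were at -0.12 ± 0.20 and -0.07 ± 0.20, and Gipc1, of the Rgs19 partner, was at -0.06 ± 0.20.

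**Figure D4:**
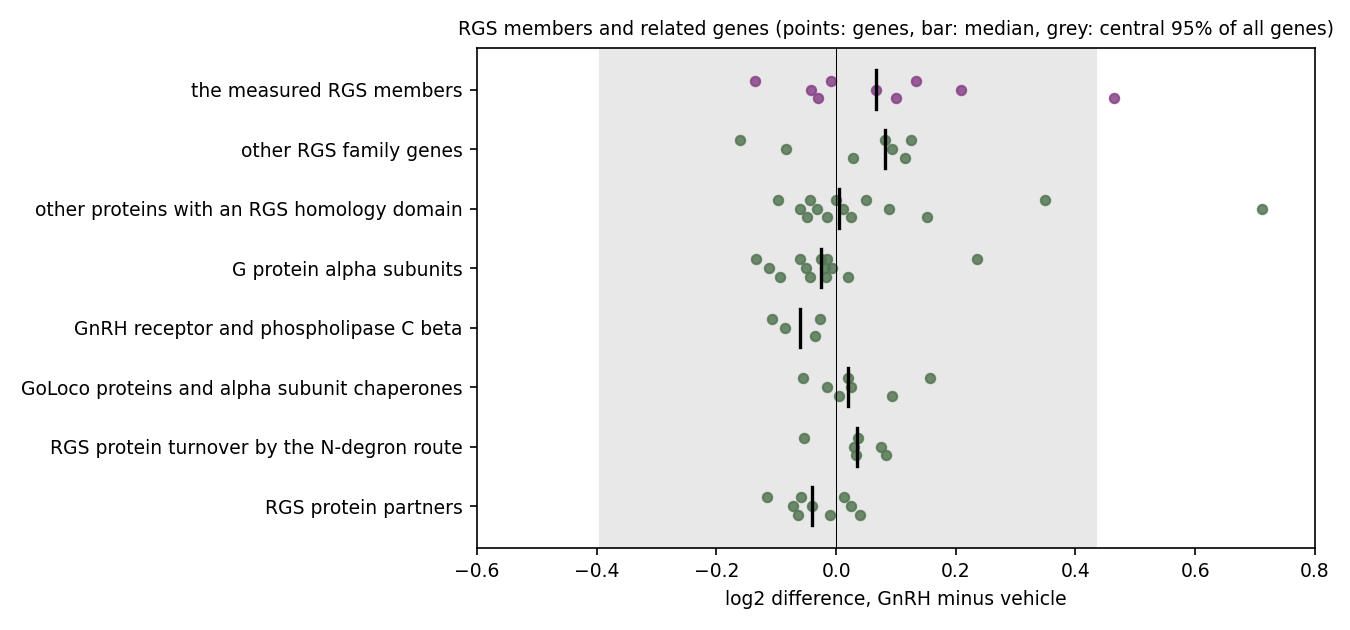
Log2 difference, GnRH minus vehicle, of the 9 measured RGS genes (top row) and of the measured genes of 7 related lists, with 1 point per gene, a bar at each median and the central 95% of all genes in grey. Rgs16 (0.46) and Grk4 (0.71) are the points outside the grey band.

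The labelled cell type was set against marker genes. Of 6 GnRH neuron markers 2 were measured, Otx2 (80.2 with vehicle and 49.9 with GnRH, -0.59 ± 0.23) and Dlx5 (21.7 and 31.3, 0.62 ± 0.37). Gnrh1 was, on both arrays, not well above background. The highest signal over its 2 probes was 7.94 with vehicle and 10.3 with GnRH, taken separately for each array. Of 5 general neuron markers 4 were measured (Map2, Snap25, Syn1 and Tubb3), with differences from -0.16 to 0.14. Of 6 gonadotrope markers 5 were measured (Cga, Gnrhr, Lhb, Nr5a1 and Pitx1), with differences from -0.13 to 0.11. Their signals with vehicle were 80508 for Cga, 48204 for Pitx1, 33412 for Nr5a1, 14861 for Gnrhr and 71.5 for Lhb, and Fshb was, on both arrays, not well above background. On both arrays, 0 of 5 markers of other pituitary cells were measured. The cells are therefore called here by their label only, and the part of cell identity in the RGS values was not tested.

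Processing moved the RGS values little. Under 12 other ways of processing, 0 of 108 values of the measured RGS genes moved by more than their scanner error. For some of these ways the outcome was largely fixed in advance. Changes of filter leave a measured gene's value as it is unless its brightest probe changes. The mean over probes can move only genes with more than 1 measured probe. Keeping outlier spots or leaving out the areas could move the RGS genes only through the array scaling. The error is also a wide limit, since only 2 of the 9 reported differences exceeded it. Rgs16 stayed above 0 in 12 of 12, from 0.43 with the normexp background correction to 0.47 with a lowess trend removed, or 1.35-fold to 1.39-fold. Rgs3 ran from 0.07, as the mean over its probes, to 0.24. Rgs14 and Rgs19 changed sign, from -0.06 to 0.02 and from -0.04 to 0.03.

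**Figure D5:**
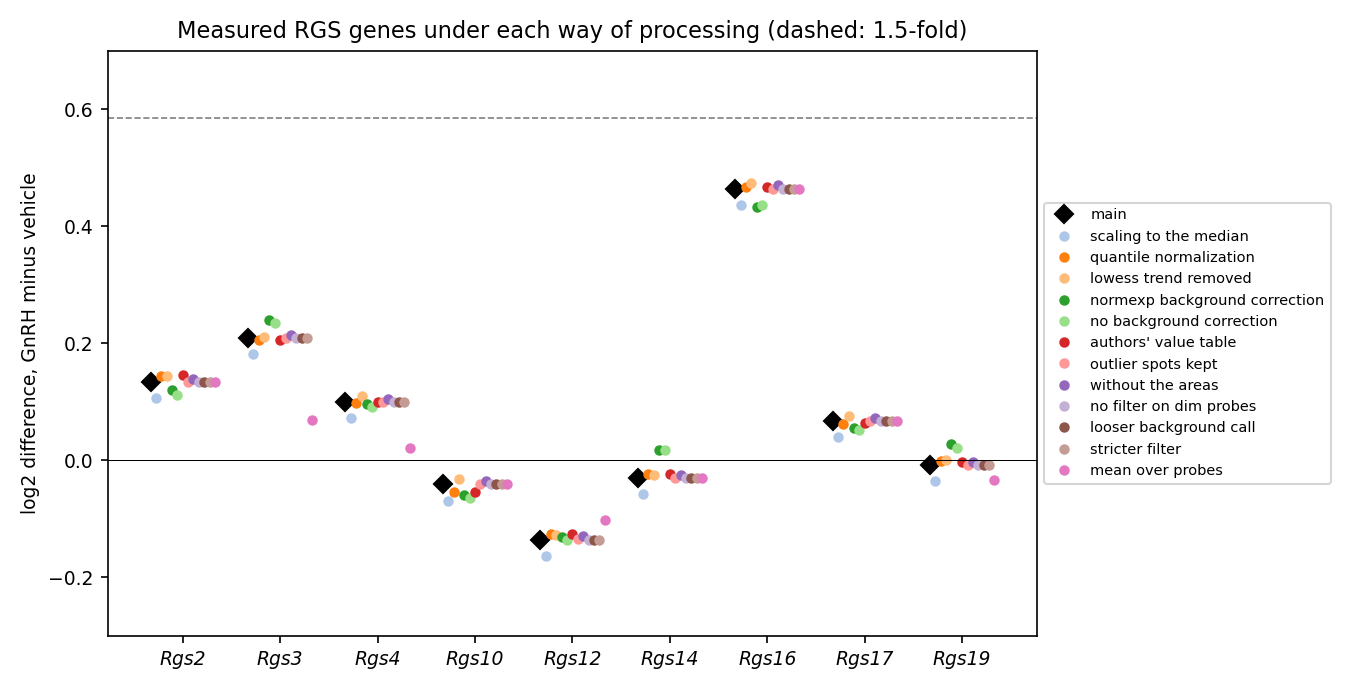
Log2 difference, GnRH minus vehicle, of the 9 measured RGS genes as reported (black diamonds) and under 12 other ways of processing (coloured points), with 1.5-fold dashed. The Rgs16 points lie between 0.43 and 0.47 and those of the other genes between -0.16 and 0.24.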

How the data were processed

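Per the labels, amplified RNA carried the Cy3 dye and was read on 1-colour Agilent mouse arrays. The deposited scanner files give the intensity of each of 62976 spots per array (59305 not controls), background-subtracted and detrended by Feature Extraction 10.7.1.1, per the file headers; the submitters' processing notes name 9.5.1.1. Spots well above background made up 55.2% (vehicle) and 56.9% (GnRH), and 0 were saturated. The value table that the authors deposited is also in linear intensity, with column medians of 28.44 and 28.44. Its log2 values tracked those of the scanner files (r = 1.00 across probes), and its differences did at r = 0.998 over 29665 probes. Its scale and direction were thus settled, while how it was normalized is not stated in the labels or headers. Its values came close to those of quantile normalization as run here. With either, 232 genes were at least 1.5-fold higher and 205 lower, so as alternatives they largely repeat each other.

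Control spots and outlier spots (121 and 94) were left out, spots of a probe were averaged as log2 values, and each array's 75th percentile was subtracted. A gene's value was that of its brightest probe well above background on both arrays. Accessions gave 27235 of 55681 probes a current name from RefSeq's gene table (GRCm38.p6), and promoter windows came from RefSeq on the same build. Errors are the scanner software's. Because each group was 1 array, nothing was tested, and a count past a fold is a description.

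All 10 RGS genes were named with every probe. Of each related list, the text names up to 3 genes with the largest differences and any past 1.5-fold, and always Gnrhr and Fos; the Adrbk2 probe and the absent cell markers were added after their values were seen. The RGS genes and the lists were chosen with earlier results of these data known. Alternatives changed scaling, background correction, source of values, filters and the probe rule. The steps were tested on simulated data. Tools were Python 3.11.15, numpy 2.4.6, pandas 2.3.3, statsmodels 0.14.6, R 4.3.3 and limma 3.58.1.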

Additional observations from a re-analysis of the deposited data

How the results depend on the processing

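No paired analysis was possible because each group had 1 array, and leaving out an array leaves no difference. The counts of RGS genes at a log2 difference of 0.32, at 1.5-fold and at 2-fold were the same under all 12 alternatives, 0 of 56 values of their other measured probes moved past the scanner error, and the median over the measured RGS genes ran from 0.02 (mean over probes) to 0.08 (no filter). Without a filter on dim probes Rgs5 was at 0.32 ± 1.78. The counts over all genes, and with them the rank of Rgs16 (131 to 3309), depended on the background correction, for which the cause was not tested, and on the filter, which sets how many dim genes enter. Genes at least 1.5-fold higher numbered 253 as reported, 86 with normexp, 88 without background correction, 2647 when dim probes were kept, 1412 with a looser background call and 98 with a stricter filter. Those at least 1.5-fold lower numbered 187 as reported and 23, 22, 1666, 955 and 30 under these in turn. Of 91 list medians 3 moved, among them that of the other genes listed with the RGS family, from 0.08 to -0.04 as a mean over probes and to -0.07 with no filter. The related RGS homology list was at 0.08 as a mean over its genes, beside a median of 0.01. No RGS gene was well above background on 1 array only, so the alternatives for such bounds were not run. By the looser background call, Rgs5 passed on the GnRH array alone. Signal over background limits Rgs5 and the dim Rgs2 and Rgs3 probes.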
